A study of Mus with 21 samples.

Results

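The wound keratins Krt6a, Krt6b, Krt16 and Krt17 were followed by their gene symbols through 21 RNA-seq libraries of mouse skin wounds, as 4 of the 18806 genes in the files. The wounds were 8 mm full-thickness punch wounds in the back skin of C57BL/6 wild-type female mice, 8 weeks old, kept open with a splint and collected on Day 4. There were 7 groups of 3 libraries. The control wounds received no hydrogel scaffold, and the other 6 groups received a hydrogel of gelatin methacryloyl (GelMA) of pH 6.4, 7.4 or 8.4 that carried aFGF or bFGF, acidic or basic fibroblast growth factor. A group name such as 6.4/aFGF gives the pH and then the factor. Among the libraries used here, no group received a hydrogel without growth factor, so the hydrogel and its growth factor cannot be told apart in the comparison with control. The labels call the 3 libraries of each group biological replicates. The mice had 2 wounds each, and the sources used here do not say how wounds and mice map to libraries. The p-values therefore set differences against the spread between these libraries.

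Keratins are the intermediate filament proteins of epithelial cells, and each filament is built from a type II and a type I chain. Krt6a and Krt6b are type II keratins, and Krt16 and Krt17 are the type I keratins found with them. Resting epidermis between hair follicles makes little of these 4 chains, while keratinocytes at a wound edge switch them on as they begin to move over the wound bed. The basal layer is marked by the pair Krt5 and Krt14, and the layers above it by Krt1 and Krt10. The 4 chains are also made in parts of the hair follicle, such as the outer root sheath and the companion layer, where Krt75 is found. RNA of whole wound tissue holds no position, so expression at the wound edge was not separated from that in hair follicles, and for every gene below fewer cells and less RNA per cell cannot be told apart.

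Total counts were 34362558 to 37817833 per library, and each of the 4 genes had 9088 to 53441 counts in every library, so that counting error was at most 1.05% of a value. All 4 passed the filter on low counts and were among the 15811 genes tested. Before the results, 4 libraries are named as standing apart. Col2a1, a cartilage collagen, was at 195 CPM (a count scaled to the library total after TMM normalization) in 7.4/aFGF replicate 3 and at most 0.965 CPM elsewhere. Alb, the liver's serum albumin, was at 138 CPM in 8.4/aFGF replicate 2 and at most 14.1 CPM elsewhere, and Ovgp1, an oviduct glycoprotein, was at 80.0 CPM in 8.4/bFGF replicate 2 and at most 1.93 CPM elsewhere. In control replicate 2, the summed level of 10 neutrophil genes was 9705 CPM, against 772 and 1359.5 CPM in the other control libraries and 3362 to 13529.6 CPM with hydrogels.

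Per length, the wound keratins were among the most abundant keratins of these wounds. In FPKM, which is corrected for gene length, the median over 21 libraries was 451 for Krt6a, 452 for Krt6b, 407 for Krt16 and 351 for Krt17. The basal type I keratin Krt14 was higher, at a median of 1242 FPKM, and its partner Krt5 was at 400.3 FPKM. By these medians, Krt14 was first among 54 keratin genes, Krt6b, Krt6a and Krt16 held positions 2 to 4, Krt5 was at 5 and Krt17 at 6. The ranges of the wound keratins over the libraries overlapped, with Krt6a at 271 to 655 FPKM and Krt6b at 206 to 611 FPKM. Krt16 ran from 239 to 584 FPKM and Krt17 from 200.1 to 476 FPKM. Such ranges do not compare the genes within a library. The suprabasal keratins were lower, with medians of 142 FPKM for Krt1 and 89.3 FPKM for Krt10. Krt15, a keratin of follicle stem cells and basal cells, had a median of 15.3 FPKM, and the companion layer keratin Krt75 had 0.927 FPKM.

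**Figure D1:**
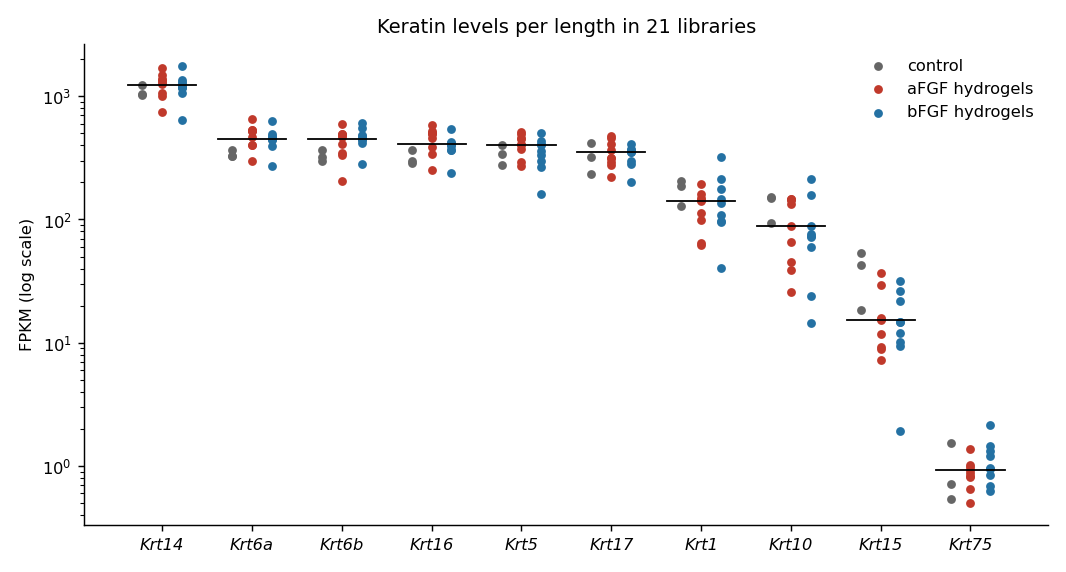
FPKM on a log scale of 10 keratins in 21 libraries, with 1 point per library (grey control, red aFGF hydrogels, blue bFGF hydrogels) and a line at the median. The 4 wound keratins and Krt5 lie together at medians of 351 to 452 FPKM, below Krt14 at 1242 and above Krt1 at 142.

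The 4 wound keratins together made up 35.4% to 49.9% of the summed FPKM of all keratin genes. Their share was 35.4% to 42.9% in the control libraries and 39.7% to 49.9% in the 18 hydrogel libraries, so the ranges overlapped. Within a library, Krt6a was the highest of the 4 in 15 of 21 libraries and Krt17 the lowest in 17. The exceptions for the first place were Krt6b in 4 libraries, Krt16 in 1 and, in control replicate 2, Krt17. Type II and type I sums were close to each other: the FPKM of Krt6a and Krt6b divided by that of Krt16 and Krt17 was 0.942 to 1.57, with a median of 1.19. For the basal pair the corresponding ratio of Krt5 to Krt14 was 0.249 to 0.372, with a median of 0.307. Krt14 also pairs with other type II chains, so neither ratio is a measure of assembled filaments.

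Krt6a, a type II keratin of the wound edge, was measured at 704, 877 and 715 CPM in the 3 control libraries. With aFGF it was at 956, 1194 and 1198 CPM at pH 6.4, at 709.8, 1469.7 and 1179 CPM at pH 7.4, and at 1017, 1073 and 1164 CPM at pH 8.4. With bFGF it was at 982, 1049 and 1009 CPM at pH 6.4, at 1019, 1019 and 658 CPM at pH 7.4, and at 1374, 1000.3 and 848 CPM at pH 8.4. The means ran from 765 ± 96.8 CPM (SD, n = 3) in control to 1119 ± 383 CPM in 7.4/aFGF, where the libraries differed 2.07-fold among themselves. All 6 neighbouring groups in the order of the means overlapped. The hydrogel groups without overlap with control were 6.4/aFGF, 8.4/aFGF and 6.4/bFGF.

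Krt6b, its close relative, was at 639, 872 and 696 CPM in control. With aFGF it was at 822, 1092 and 1110.4 CPM at pH 6.4, at 484, 1319 and 1076 CPM at pH 7.4, and at 838, 945 and 1045 CPM at pH 8.4. With bFGF it was at 1027, 1113 and 995 CPM at pH 6.4, at 964, 995 and 679 CPM at pH 7.4, and at 1329, 1108 and 899 CPM at pH 8.4. The 3 bFGF groups placed first, second and sixth in the order of the Krt6b means, with 8.4/bFGF highest at 1112 ± 215 CPM (SD, n = 3) and control lowest at 736 ± 121 CPM. The lowest Krt6b value of the series was that of 7.4/aFGF replicate 1.

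Krt16, a type I keratin that pairs with Krt6 chains, was at 436, 603 and 451 CPM in control. With aFGF it was at 564, 806 and 785 CPM at pH 6.4, at 413, 909 and 771 CPM at pH 7.4, and at 677, 739 and 785 CPM at pH 8.4. With bFGF it was at 641, 591 and 648 CPM at pH 6.4, at 609, 595 and 404 CPM at pH 7.4, and at 823, 518 and 636 CPM at pH 8.4. The 3 aFGF groups had the highest means, led by 8.4/aFGF at 734 ± 54.5 CPM (SD, n = 3), and control was lowest at 497 ± 92.5 CPM. 8.4/aFGF did not overlap with 6.4/bFGF, 7.4/bFGF or control.

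Krt17, a type I keratin of wound edge and hair follicle, was at 281, 547 and 387 CPM in control. With aFGF it was at 361, 362 and 578 CPM at pH 6.4, at 289, 588 and 385 CPM at pH 7.4, and at 436, 464 and 504 CPM at pH 8.4. With bFGF it was at 424, 449.5 and 518 CPM at pH 6.4, at 332, 431 and 268 CPM at pH 7.4, and at 451, 331 and 435 CPM at pH 8.4. Unlike the other 3 genes, its lowest mean was not that of the controls, which had 405 ± 134 CPM (SD, n = 3), but that of 7.4/bFGF at 344 ± 82.5 CPM. Of the 21 pairs of groups, 18 overlapped for Krt6a, Krt6b and Krt16 and 20 for Krt17. Over all genes tested, 16.5% of such pairs of groups did not overlap.

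**Figure D2:**
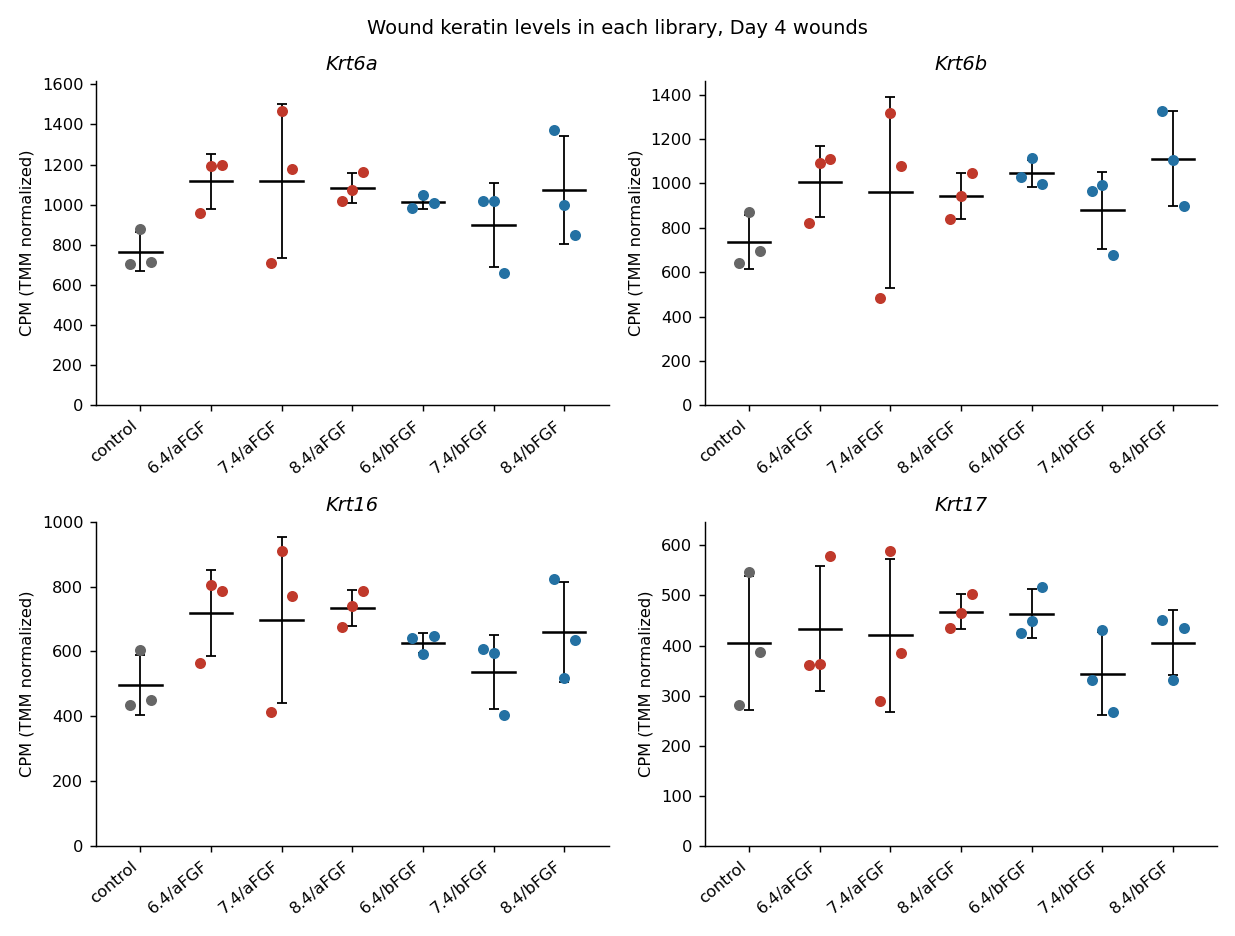
CPM of Krt6a, Krt6b, Krt16 and Krt17 in 7 groups, with 1 point per library (grey control, red aFGF, blue bFGF), a line at the mean and bars of 1 SD (n = 3). The control libraries sit low for Krt6a, Krt6b and Krt16 (means of 765, 736 and 497 CPM) and within the hydrogel range for Krt17 (405 CPM).

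The first question was whether wounds with any of the hydrogels differed from control wounds. Krt6a, Krt6b and Krt16 were higher on average with hydrogels, and Krt17 differed little on average, with a wide interval. In edgeR's quasi-likelihood test none of the 4 passed both thresholds used throughout. These were an adjusted p under 0.05 (Benjamini-Hochberg over all genes tested) and a log2 fold change beyond 0.58. Krt6a was 0.45 higher on the log2 scale (SE 0.183, adjusted p = 0.234), a fold change of 1.37 with a 95% interval of 1.05 to 1.79. Its unadjusted p was 0.0243, and it was the only member with an unadjusted p under 0.05 in this comparison. Of the 18 hydrogel libraries, 15 lay above the highest control for Krt6a. Krt6b was 0.43 higher (SE 0.212, adjusted p = 0.325), with 14 hydrogel libraries above the highest control. The hydrogel and control libraries overlapped for each of the 4, as for all but 0.607% of genes.

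Krt16 was 0.41 higher with hydrogels (SE 0.196, adjusted p = 0.308), with 12 of 18 libraries above the highest control. Krt17 differed by 0.05 (SE 0.208, adjusted p = 0.921), with 2 of 18 libraries above it and a 95% interval of -0.39 to 0.49 on the log2 scale. The median of the 4 differences was 0.42, and the median over all genes tested was -0.02. The share of all genes called in this comparison was 0.00632%, a single gene, Hmga2, and 16.7% had an unadjusted p under 0.05. DESeq2, run as an alternative, called 171 genes and none of the 4. Control replicate 2 had the highest control value of each of the 4 genes. Without it, edgeR called 1189 genes, and the differences were 0.56 for Krt6a (adjusted p = 0.107), 0.57 for Krt6b (adjusted p = 0.160), 0.57 for Krt16 (adjusted p = 0.121) and 0.33 for Krt17 (adjusted p = 0.382), so that none of the 4 was called.

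In the same edgeR comparison the basal keratins differed on the log2 scale by 0.14 for Krt5 (SE 0.199, adjusted p = 0.746) and by 0.16 for Krt14 (SE 0.192, adjusted p = 0.699). Krt1 was at -0.40 (SE 0.327, adjusted p = 0.548), Krt10 at -0.61 (SE 0.533, adjusted p = 0.5796) and Krt15 at -1.27 (SE 0.489, adjusted p = 0.218), and none passed the test. Each wound keratin was therefore also set against the count of a basal keratin of its own type in the same library, Krt5 for type II and Krt14 for type I. Krt16 stood at 0.315 ± 0.029 counts per Krt14 count with hydrogels (SD, n = 18) and at 0.265 ± 0.052 in control (n = 3), a log2 difference of 0.26 (two-sided exact permutation p = 0.0173, adjusted p = 0.138 over 8 tests). Krt6a stood at 1.29 ± 0.214 counts per Krt5 count with hydrogels and at 1.05 ± 0.190 in control, a log2 difference of 0.30 (exact permutation p = 0.0602, adjusted p = 0.241). For Krt6b per Krt5 count the log2 difference was 0.27 (exact permutation p = 0.167, adjusted p = 0.445). With Krt14 in place of Krt5, the Krt6a difference was also 0.30 and passed (exact permutation, adjusted p = 0.0361). It was the only hydrogel ratio to pass when the other basal keratin was used. The ratio of Krt17 to Krt14 was 0.153 to 0.279 with hydrogels and 0.163 to 0.292 in control, a log2 difference of -0.06 (exact permutation, adjusted p = 0.796).

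The ratio of Krt17 to its fellow members was lower on average with hydrogels. Krt17 stood at 0.405 ± 0.063 counts per Krt6a count with hydrogels (SD, n = 18) and at 0.521 ± 0.114 in control (n = 3), a log2 difference of -0.36 (two-sided exact permutation p = 0.0316, adjusted p = 0.115 over 12 tests). Against Krt16 it stood at 0.645 ± 0.089 with hydrogels and 0.803 ± 0.140 in control, a log2 difference of -0.31 (exact permutation p = 0.0383, adjusted p = 0.115). Against Krt6b the log2 difference was -0.33 (exact permutation p = 0.0707, adjusted p = 0.170). None of these differences passed after adjustment. The differences depended on which control was left out. Without control replicate 2, where Krt17 was highest among the controls, those to Krt6a and Krt16 were -0.21 and -0.22 and did not pass. Without control replicate 1, where Krt17 was lowest, those to Krt6a and Krt16 were -0.54 and -0.47 and passed (exact permutation, adjusted p = 0.0211 and 0.0316). The difference to Krt6b was then -0.47 and did not pass, as with any other library left out (exact permutation, adjusted p at least 0.0758).

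Summed levels of markers of other cells overlapped between the same groups, and edgeR called none of the suprabasal, hair follicle, basal or adipocyte genes. The summed level of 15 suprabasal genes was 1862 to 3049 CPM in control and 915 to 3142 CPM with hydrogels, and that of 30 hair follicle genes was 157 to 329.5 CPM in control and 69.9 to 286 CPM with hydrogels. The 12 basal genes summed to 3356 to 4114 CPM in control and 2443 to 5696 CPM with hydrogels. Adipocyte genes summed to 988 to 11984 CPM in control and 584 to 8736 CPM with hydrogels, with 10 of 10 lower on average. Of the genes tested, 11 of 14 suprabasal and 15 of 19 hair follicle genes were also lower with hydrogels, and 10 of 12 basal genes were higher. Over all genes tested, 46.6% were higher and 0.00632% were called. An unadjusted p under 0.05 in edgeR was found for 60% of adipocyte, 26.3% of hair follicle, 25% of basal and 21.4% of suprabasal genes tested. The share over all genes was 16.7%. The median log2 difference of the adipocyte genes was -1.51. No gene of these lists was at 0 in all libraries, 14 of the 30 hair follicle genes were at 0 in at least 1 library, and the part of these tissues in the keratin differences was not tested.

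The wound keratins were next compared in 6.4/aFGF, the hydrogel of weakly acidic pH with aFGF, and the other 6 groups. The log2 differences were 0.18 for Krt6a, 0.10 for Krt6b, 0.21 for Krt16 and 0.06 for Krt17 (SE 0.174 to 0.206, adjusted p at least 0.960 with edgeR). The log2 ratios to the basal keratin of the same type differed by -0.09 for Krt6a, -0.16 for Krt6b, 0.03 for Krt16 and -0.14 for Krt17. None of these ratios passed (exact permutation, adjusted p at least 0.677). The share of all genes called by edgeR in this comparison was 0%, and 5.66% had an unadjusted p under 0.05, none of the 4 keratins among them. DESeq2 called 9 genes and none of the 4. Between 6.4/aFGF and 7.4/aFGF the 4 differences lay from -0.004 to 0.07 on the log2 scale, with 95% intervals that reached from -0.53 to 0.64, and 0% of genes were called. An unadjusted p under 0.05 was found for 7.25% of genes and for none of the 4. Of the 9 aFGF libraries, both the lowest and the highest value of each wound keratin were in 7.4/aFGF.

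With bFGF, pH 6.4 against 7.4 gave log2 differences of 0.17 for Krt6a, 0.25 for Krt6b, 0.23 for Krt16 and 0.43 for Krt17 (edgeR, adjusted p at least 0.706), and 0% of genes were called, with an unadjusted p under 0.05 for 7.82% of genes and none of the 4. Krt6b was the only one of the 4 whose 6.4/bFGF libraries, at 995 to 1113 CPM, all lay above those of 7.4/bFGF, at 679 to 995 CPM, by less than 1 CPM at the closest. At pH 8.4 against 7.4, the differences were -0.05 to 0.15 with aFGF and 0.24 to 0.34 with bFGF (edgeR, adjusted p at least 0.999), and 0% of genes were called in either. An unadjusted p under 0.05 was found for 4.88% of genes with aFGF and 4.07% with bFGF, and for none of the 4. The test of whether the change from pH 7.4 to 6.4 differed between aFGF and bFGF gave -0.18 for Krt6a, Krt6b and Krt16 and -0.39 for Krt17 (edgeR, SE 0.326 to 0.384, adjusted p at least 0.907), with 0% of genes called, and 5.14% of genes but none of the 4 had an unadjusted p under 0.05. Replicate 3 of 7.4/bFGF had the lowest value of the series for Krt6a, Krt16 and Krt17. It was also lowest for Krt5 (385 CPM), Krt14 (1178 CPM), Krt1 (107 CPM), Krt10 (33.2 CPM) and Krt15 (3.54 CPM), though not for Krt6b or Krt75. The summed basal, suprabasal and hair follicle genes were lowest there too, at 2443, 915 and 69.9 CPM. The wound keratins made up 48.6% of its keratin FPKM, so its low values were not particular to them. In that library S100a8, a calprotectin subunit of neutrophils and wound keratinocytes, was highest of all 21, at 4483 CPM, and the muscle actin Acta1 lowest, at 122 CPM. Their part in its keratin values was not tested.

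**Figure D3:**
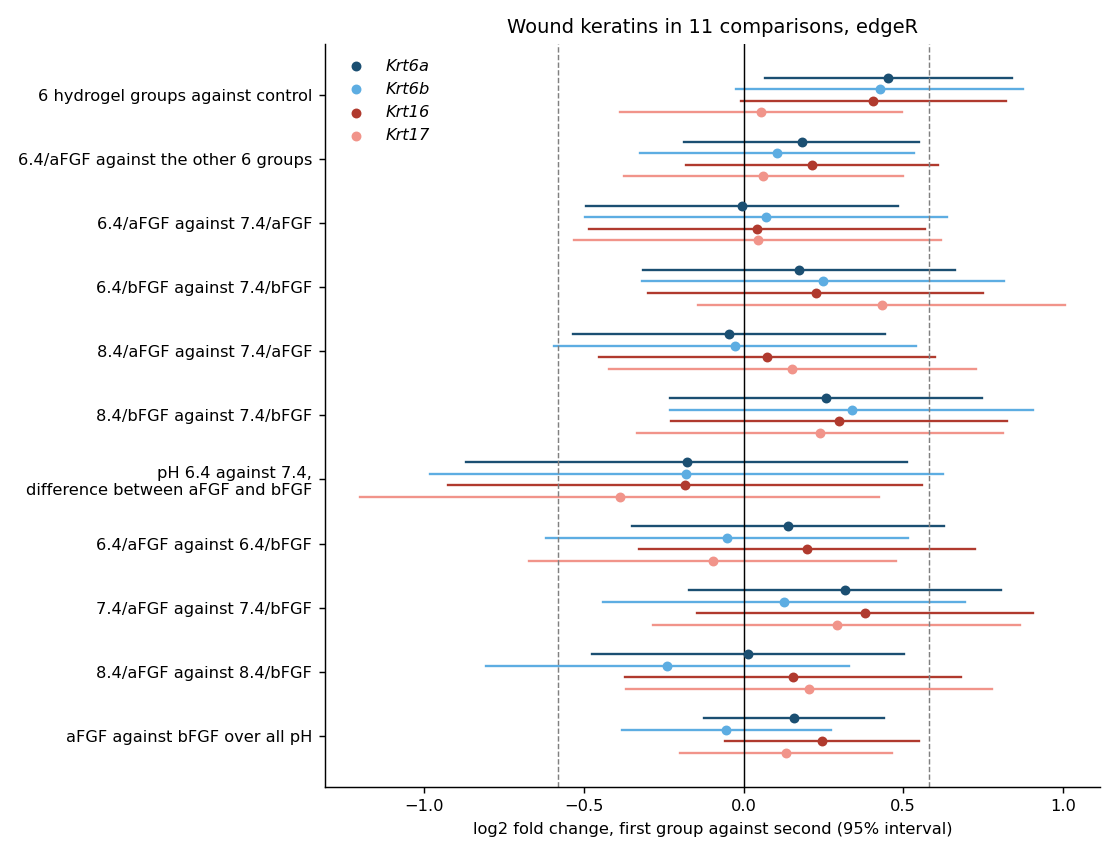
log2 fold change of each wound keratin in 11 comparisons from edgeR, with 95% intervals, the first group named against the second, a solid line at 0 and dashed lines at the threshold of 0.58 in either direction. Krt6a in hydrogels against control, at 0.45, is the only value whose interval excludes 0.

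The growth factors were compared at each pH and over all pH. At pH 6.4 the aFGF minus bFGF differences were 0.14 for Krt6a, -0.05 for Krt6b, 0.20 for Krt16 and -0.10 for Krt17, at pH 7.4 they were 0.32, 0.13, 0.38 and 0.29, and at pH 8.4 they were 0.01, -0.24, 0.15 and 0.21, in the same order and on the log2 scale. None passed the test in edgeR (adjusted p at least 0.480), where 0%, 0.0759% and 0.0632% of all genes were called and 7.15%, 14.8% and 20.1% had an unadjusted p under 0.05. Over all pH, with 9 libraries against 9, the differences were 0.16 for Krt6a (SE 0.133, adjusted p = 0.475), -0.05 for Krt6b (SE 0.155, adjusted p = 0.858), 0.24 for Krt16 (SE 0.144, adjusted p = 0.283) and 0.13 for Krt17 (SE 0.157, adjusted p = 0.622). Here 3.2% of genes were called and 28% had an unadjusted p under 0.05, none of the 4 keratins in either count. In the test of any difference among the 7 groups, edgeR gave adjusted p-values of 0.477 for Krt6a, 0.636 for Krt6b, 0.478 for Krt16 and 0.824 for Krt17, with 0.114% of genes called and 19.3% at an unadjusted p under 0.05, none of the 4 in either.

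The balance of the type II pair did differ between the growth factors. Krt6b was at 0.860, 0.915 and 0.927 counts per Krt6a count in 6.4/aFGF, at 0.682, 0.897 and 0.913 in 7.4/aFGF, and at 0.823, 0.881 and 0.898 in 8.4/aFGF. With bFGF it was at 1.05, 1.06 and 0.987 at pH 6.4, at 0.946, 0.976 and 1.03 at pH 7.4, and at 0.967, 1.11 and 1.06 at pH 8.4. All 9 aFGF libraries lay below all 9 bFGF libraries, with means of 0.866 ± 0.076 and 1.02 ± 0.054 (SD, n = 9), and the control libraries, at 0.908, 0.994 and 0.974, lay from inside the aFGF range to inside the bFGF range.

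The difference in the log2 ratio of Krt6b to Krt6a was -0.24 (two-sided exact permutation p = 4.11e-05, the smallest that 9 against 9 libraries can give, adjusted p = 0.000494 over 12 tests of ratios between members). This measure was chosen after the values had been seen. Over all genes tested, 0.658% of genes had levels that did not overlap between aFGF and bFGF libraries. That share is for levels of single genes, and no corresponding share was computed for ratios of genes that follow each other. With any 1 library left out the difference was -0.25 to -0.20, nearest to 0 without 7.4/aFGF replicate 1. By FPKM, Krt6b exceeded Krt6a in 5 of 9 bFGF libraries, in 0 of 9 aFGF libraries and in 1 of 3 control libraries. The messages of Krt6a and Krt6b are nearly identical over much of their length, and how reads that match both were assigned is not given in the sources used here. The labels give no sequencing batch, so the growth factor and an unlabelled batch cannot be told apart.

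**Figure D4:**
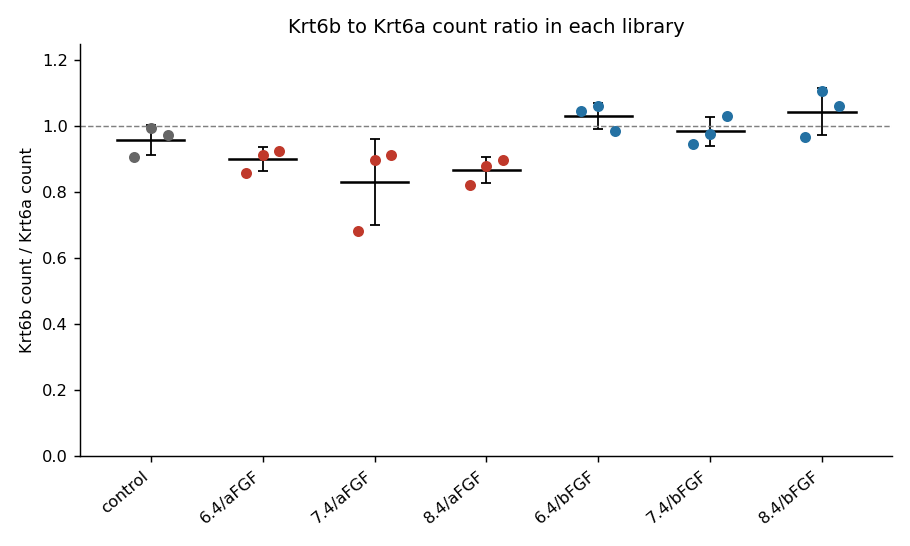
Krt6b count divided by Krt6a count in each library, in 7 groups, with 1 point per library (grey control, red aFGF, blue bFGF), a line at the mean, bars of 1 SD (n = 3) and a dashed line at a ratio of 1. The aFGF libraries lie at 0.682 to 0.927 and the bFGF libraries at 0.946 to 1.11, with the controls at 0.908 to 0.994.

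The ratio of Krt16 to Krt6b, a type I to a type II wound keratin, also differed between growth factors. It was 0.748 ± 0.057 with aFGF and 0.603 ± 0.069 with bFGF (SD, n = 9 each), a log2 difference of 0.32 (two-sided exact permutation p = 0.000165, adjusted p = 0.000987), and the ranges overlapped, at 0.686 to 0.853 and 0.468 to 0.708. The ratio of Krt16 to Krt6a was 0.645 ± 0.039 with aFGF and 0.613 ± 0.065 with bFGF, a log2 difference of 0.08 that did not pass (exact permutation p = 0.204, adjusted p = 0.351). The ratios that involve Krt17 did not pass either, at log2 differences of -0.11 to 0.20. Both ratios that passed contain Krt6b, whose own level differed by -0.05 between the growth factors. The 2 results are not independent. On the log2 scale, the Krt16 to Krt6b difference is the Krt16 to Krt6a difference of 0.08 minus the Krt6b to Krt6a difference of -0.24.

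The levels of the 4 genes followed each other from library to library. Over 21 libraries, the log2 CPM of Krt6a correlated with that of Krt16 at Pearson r = 0.94 and Spearman rho = 0.88, and with that of Krt6b at r = 0.90 and rho = 0.85, each with a permutation p of 1e-05 for both, the smallest they can give (adjusted over 6 pairs, 2e-05 and 6e-05). Krt6b and Krt16 had r = 0.84 and rho = 0.71 (permutation p = 1e-05 and 0.00046, adjusted 2e-05 and 0.00092). Krt16 and Krt17, both type I, had r = 0.74 and rho = 0.68 (permutation p = 0.00011 and 0.00091, adjusted 0.000165 and 0.00136). Krt17 followed the type II genes least, at r = 0.65 and rho = 0.59 with Krt6a (permutation p = 0.00135 and 0.00557, adjusted 0.00162 and 0.00668) and r = 0.64 and rho = 0.52 with Krt6b (permutation p = 0.00182 and 0.017, also after adjustment).

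Without the 2 libraries farthest from the median of the first gene, r was 0.91 for Krt6a and Krt16, 0.89 for Krt6a and Krt6b, 0.78 for Krt6b and Krt16, 0.62 for Krt16 and Krt17, 0.49 for Krt6a and Krt17 and 0.47 for Krt6b and Krt17. Leaving out the farthest libraries narrows the range of the first gene, which by itself lowers a correlation. For Krt6b and Krt17 rho was then 0.36 (adjusted permutation p = 0.0417 for r and 0.13 for rho), and for Krt6a and Krt17 it was 0.45 (0.0373 for r and 0.0633 for rho), so these rank correlations no longer passed. After subtracting each group's mean, r was 0.96 for Krt6a and Krt6b, 0.92 for Krt6a and Krt16, and 0.71 to 0.91 for the other pairs. Libraries share their makeup of tissue, and reads shared between related keratins could raise these values.

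**Figure D5:**
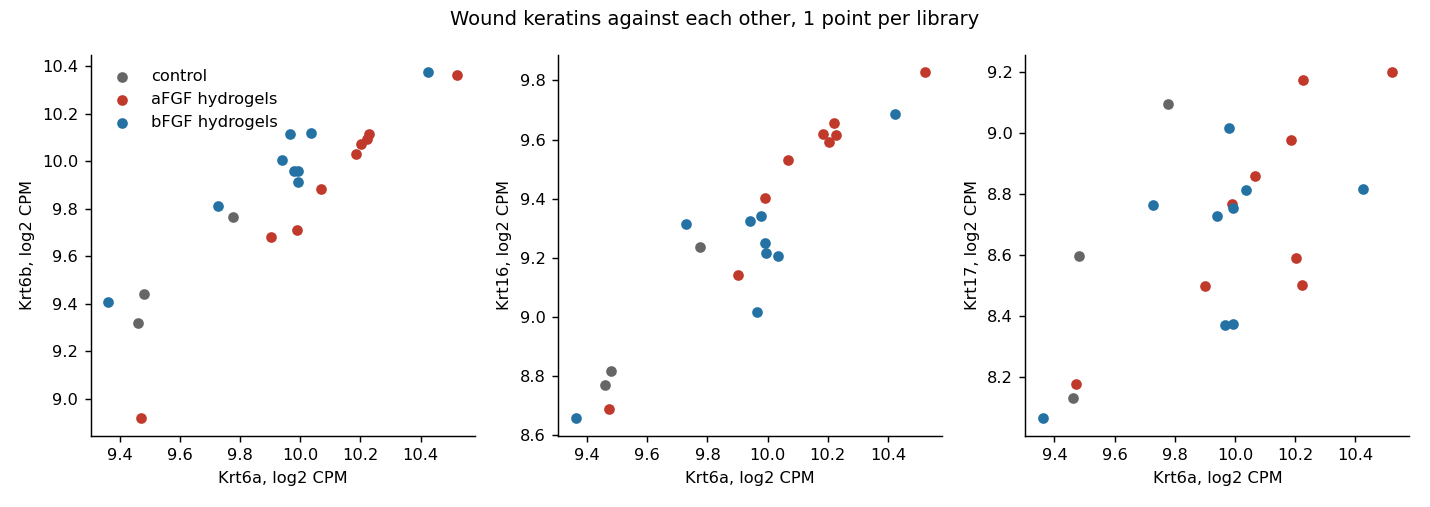
log2 CPM of Krt6b, Krt16 and Krt17 against that of Krt6a, with 1 point per library (21 libraries, grey control, red aFGF, blue bFGF). Krt6b and Krt16 lie close to a line (r = 0.90 and 0.94), with the bFGF points above the aFGF points for Krt6b, and Krt17 scatters more widely (r = 0.65).

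Among 13882 other genes with a mean of at least 1 CPM, the 10 whose log2 CPM over the 21 libraries was most like the mean standardised pattern of the 4 wound keratins were named, as a description. The desmosomal cadherin Dsg1b was first (r = 0.89), with 19.0 to 48.6 CPM, and the basal keratin Krt14 second (r = 0.88), with 1178 to 2942 CPM. They were followed by Urah, an enzyme of urate breakdown (0.86), the connexin Gjb2 (0.85), the fatty acid binding protein Fabp5 (0.84), AI661453 (0.82), the desmosomal plaque protein Pkp1 (0.82), the exonuclease Trex2 (0.81), the p53 target Perp (0.81) and the ceramide synthase Cers3 (0.78). Krt5 was at position 20 (r = 0.75), behind its partner Krt14. Krt1 had r = 0.53, Krt10 0.32, Krt15 0.27 and Krt75 0.23 to the same pattern. The members, which make up the pattern, had r = 0.96 for Krt16, 0.95 for Krt6a, 0.92 for Krt6b and 0.83 for Krt17. Krt17 thus followed the pattern less closely than Krt14 did.

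Other genes that keratinocytes switch on in wounds were taken as a list of 40, of which 38 were in the files and all 38 were tested. With hydrogels against control, 35 of 38 were higher on average, with a median log2 difference of 0.60, beside 0.42 for the 4 wound keratins and -0.02 for all genes. edgeR called 0 of the 38, and 14 (36.8%) had an unadjusted p under 0.05, beside 0.00632% and 16.7% of all genes. The list is not specific to keratinocytes, and it holds S100a8, S100a9 and Il1b, which neutrophils also make. Its summed level was 20986 CPM in control replicate 2 against 3528 and 4261 CPM in the other controls. Of the 10 neutrophil genes, which include S100a8, S100a9 and Il1b, 8 were higher on average with hydrogels, with a median log2 difference of 0.93. The part of neutrophils in the difference of the list was not tested. Lama3, the laminin chain of the epidermal basement membrane, was among the 3 genes of the list with the smallest unadjusted p over the 7 groups (0.00364, adjusted p = 0.121 with edgeR), at 24.7 to 38.6 CPM in control, 30.7 to 52.3 CPM with aFGF and 32.9 to 85.3 CPM with bFGF.

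Between aFGF and bFGF over all pH, 6 genes of this list were called by edgeR, 5 higher and 1 lower with aFGF, and 15 of 38 had an unadjusted p under 0.05, beside 3.2% and 28% of all genes. The 4 wound keratins were in neither count. The called genes included 3 ligands of the EGF receptor. Areg was at 9.02 to 39.4 CPM with aFGF and 4.95 to 8.95 CPM with bFGF (log2 difference 1.61, SE 0.247, adjusted p = 0.00366). Epgn differed by 1.11 (SE 0.296, adjusted p = 0.0280) and Ereg by 2.32 (SE 0.587, adjusted p = 0.0227). The cytokine Il24 was at 3.10 to 8.66 CPM with aFGF and 1.51 to 4.02 CPM with bFGF (1.39, SE 0.247, adjusted p = 0.00551).

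The fibronectin receptor chain Itga5 was 0.79 higher with aFGF (SE 0.196, adjusted p = 0.0204 with edgeR), and the collagenase Mmp13 was 1.54 lower in level, at 23.9 to 58.4 CPM with aFGF and 62.8 to 225 CPM with bFGF (log2 difference -1.54, SE 0.350, adjusted p = 0.0146). The median over the 38 genes was 0.05, and that of all genes was -0.002. Of 19 genes known to act on wound keratin expression or keratinocyte growth, 1 was called in this comparison, the Hedgehog effector Gli2 (-0.83, SE 0.218, adjusted p = 0.0260), and 14 of 19 were higher on average with aFGF, with a median of 0.26. Over all genes 3.2% were called and 49.7% were higher. For the same genes with hydrogels against control, 0 were called by edgeR, 8 had an unadjusted p under 0.05 and 11 of 19 were higher, with a median of 0.06, beside 16.7% of all genes under that p and 46.6% higher.

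Of 12 basal genes, 1 was called between aFGF and bFGF, the transcription factor Tfap2a (0.60, SE 0.090, adjusted p = 0.00366 with edgeR), and it was also called at pH 7.4 (1.07, SE 0.157, adjusted p = 0.0166). Of 14 suprabasal genes tested, the crosslinking enzyme Tgm3 was called (0.75, SE 0.184, adjusted p = 0.0204). Of 19 hair follicle genes tested, Tchh, a protein of the inner root sheath, was called (-1.28, SE 0.309, adjusted p = 0.0193). Macrophage genes were higher with aFGF in 10 of 10 cases, 2 of them called, and fibroblast genes lower in 10 of 10, 1 of them called. Over all genes 3.2% were called in this comparison and 49.7% were higher with aFGF. These lists stood beside wound keratin differences of -0.05 to 0.24, and their part in the ratio of Krt6b to Krt6a was not tested.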

How the data were processed

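For each of 21 libraries (TRIzol extraction, stranded mRNA kit), the files deposited hold unnormalized read counts by gene. Beside them the authors deposited FPKM values. On 14938 genes with a count in every library, each deposited FPKM value equalled the count divided by a fixed length and the library total. The submitters' processing notes name the build GRCm39; the aligner, counter and annotation are not given in the sources used here. Of 18806 symbols, 18669 (99.3%) matched the RefSeq gene table at hand, which is of another build, so no coordinates are given. The members and gene lists were chosen with earlier results of these data known.

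The counts of all groups entered a quasi-likelihood model of edgeR 4.0.16 under R 4.3.3 (TMM scaling, default filter by group), 1 fit of all 21 libraries with a mean per group, giving 12 comparisons. CPM were scaled by TMM. Ratios of counts within a library were compared on the log2 scale by two-sided exact permutation in SciPy 1.17.1, and correlations with 100000 resamples. Named were the 4 members, 6 other keratins, the 10 genes most like their pattern and, of the wound epidermis list, called genes and the 3 with the smallest p over the 7 groups. Hmga2, Gli2, Tfap2a, Tgm3, Tchh, Acta1, S100a8, Col2a1, Alb and Ovgp1 were named after their values were seen. Alternatives were DESeq2 1.42.0, RLE normalization, no filter, a block for the replicate number, adjusted p without a fold change limit, limma 3.58.1 on log2(FPKM + 1) and log2(FPKM + 0.1) for genes whose FPKM averaged 1 or more, Krt14 as a covariate, only the 6 libraries compared, 3 libraries with genes of other tissues left out, and each library left out. The ratios between members and the correlations without 2 libraries were chosen after seeing the data. The tests were tried on simulated counts. Libraries of a group differed by more than counting noise.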

Additional observations from a re-analysis of the deposited data

How the results depend on the processing

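No wound keratin was called in any of 378 combinations of a comparison and a setting, over 12 comparisons and 32 settings. The smallest adjusted p of a member in any of them was 0.0971 (Krt16, aFGF against bFGF, edgeR without 7.4/aFGF replicate 1). Signs with Krt14 as a covariate were compared for hydrogels against control, 6.4/aFGF against the other 6 groups and aFGF against bFGF over all pH. In these, 3 member differences turned: Krt17 with hydrogels against control (-0.0536), and Krt6b (-0.0727) and Krt17 (-0.0825) in 6.4/aFGF against the other 6 groups. The cause was not tested. Replicate numbers did not pair the libraries (median correlation of same-numbered libraries 0.0089, range -0.638 to 0.423 over 63 pairs, with 5 of 21 libraries most like their own number). With the replicate number as a block, 2 genes were called with hydrogels against control, 7 between the growth factors at pH 7.4 and 10 over the 7 groups, and no call of a member changed.

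Counts of all genes called moved more. DESeq2 called 171 genes with hydrogels against control, 9 for 6.4/aFGF against the other groups, 19 and 3 for pH 6.4 against 7.4 with aFGF and bFGF, 31 and 3 for pH 8.4 against 7.4, 3 for the difference between growth factors, 22, 224 and 555 for aFGF against bFGF at pH 6.4, 7.4 and 8.4, 777 over all pH and 2030 over the 7 groups. Without the fold change threshold, 2 were called with hydrogels and 1702 for aFGF against bFGF, and limma on log2(FPKM + 1) called 212 of the latter. With Krt14 as a covariate, 30 were called with hydrogels, 47 for aFGF against bFGF at pH 7.4 and 30 over the 7 groups. Without the 3 libraries with genes of other tissues, the counts were 0 with hydrogels, 5 at pH 7.4, 0 at pH 8.4 and 3 over the 7 groups. With only the 6 libraries compared, 0 were called at pH 7.4 and 1 at pH 8.4, and at pH 8.4 both no filter and limma on log2(FPKM + 0.1) gave 6.

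With 1 library left out at a time, edgeR called 0 to 1189 genes with hydrogels against control (at most 9 other than without control replicate 2), 0 to 1 for 6.4/aFGF against the other groups, for pH 8.4 against 7.4 with aFGF and for aFGF against bFGF at pH 6.4, 0 to 31 at pH 7.4, 4 to 319 at pH 8.4, 269 to 714 over all pH and 7 to 864 over the 7 groups. Turned member differences were looked for only in hydrogels against control, 6.4/aFGF against the other groups and aFGF against bFGF over all pH. In these, the ones that turned were those of Krt17 with hydrogels (-0.15 to 0.33), Krt17 in 6.4/aFGF (-0.20 to 0.18) and Krt6b between growth factors (-0.154 to 0.0524). Member differences in the other comparisons were not followed in this way. Among ratios to a basal keratin, the range was 0.13 to 0.41 for Krt16 with hydrogels (past the threshold in 1 of 21), -0.23 to 0.19 for Krt17 with hydrogels and -0.0365 to 0.0740 for Krt16 in 6.4/aFGF. With the other basal keratin as the denominator, Krt6a with hydrogels was at 0.30 (past the threshold), and in 6.4/aFGF Krt6a was at 0.00567 and Krt16 at -0.0630. Among ratios between members, the ranges with hydrogels were -0.0723 to 0.00394 for Krt16 to Krt6a, -0.54 to -0.21 for Krt17 to Krt6a, -0.0390 to 0.0191 for Krt16 to Krt6b (0.00144 without the 3 libraries) and -0.47 to -0.22 for Krt17 to Krt16, and between growth factors -0.0764 to 0.0107 for Krt17 to Krt6a. Depth does not limit the members, whose counting error is at most 1.05%. With 3 libraries a group, the spread between libraries does.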
